A study of Mus musculus with 32 samples.

Results

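The genes examined were 32 genes of fatty acid oxidation, 18 whose products act in or serve the mitochondrial pathway and 14 of the peroxisomal pathway, out of 14653 protein-coding genes with a site of the transcription factor HNF4A in their surroundings. They were chosen by function. Sites were assigned to a gene when they lay in its body or within 20 kb on either side, in the GENCODE M1 annotation of the mouse build mm9. HNF4A ChIP-seq had been done on jejunal intestinal epithelial cell (IEC) preparations of male C57BL/6J mice aged 10 to 12 weeks, 1 library per mouse. In GF+HFM, 4 germ-free mice had received a high-fat meal of egg yolk by gavage. In CV+HFM, 4 ex-germ-free mice had been colonized with a conventional microbiota for 14 days before the same meal. Food was freely available, though the sources name different chows without tying them to groups, and tissue was taken 2 hours after the meal. These preparations hold most of the villus epithelium with some crypts and some villus mesenchymal cells, so fewer cells with a bound site and less binding per cell cannot be told apart.

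HNF4A is a nuclear receptor that binds DNA as a homodimer and is a master regulator of enterocyte genes. Mitochondrial beta-oxidation needs carnitine to carry long-chain acyl groups across the inner membrane, after which repeated cycles of dehydrogenation, hydration and cleavage shorten the chain and hand electrons to the respiratory chain. Peroxisomes shorten very-long-chain, branched and dicarboxylic fatty acids and bile acid precursors, and their oxidases pass electrons to oxygen, which makes hydrogen peroxide. In the jejunum, enterocytes burn part of the absorbed fat and package most of it for export.

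A peak list gives the position of each peak and nothing on its height. Peaks of the 8 lists that shared at least 1 bp were merged, which gave 45552 sites, and a library called a site when one of its peaks lay in it. The GF+HFM lists held 31061 to 36846 peaks. The CV+HFM lists held 29345, 9206, 21033 and 4533 peaks, so CV+HFM replicates 2 and 4 stood apart as short lists, and read depth is unknown. A GF+HFM site had to be called by 2 or more GF+HFM libraries, and a CV+HFM site by 2 or more CV+HFM libraries.

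All 32 fatty acid oxidation genes had at least 1 HNF4A site, and every one of them had a lower mean number of sites called in CV+HFM than in GF+HFM, as had 96.2% of the 14653 genes. Together they held 199 merged sites, 103 at mitochondrial and 96 at peroxisomal members, of which 6 lay at 2 members each. Counted once per member, they made 205 pairs of member and site, and in 118 the member's own start was the nearest gene start. In the other pairs the start of another gene was nearest. The median member had 6 merged sites against 3 for all genes with a site. Site density was 0.906 per 10 kb of window at the members and 0.475 over all these genes. The number of GF+HFM sites per member ran from 1 to 11 and that of CV+HFM sites from 0 to 7.

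Of 153 GF+HFM sites at the members, 78 were also CV+HFM sites (51.0%), beside 53.6% of all 34480 GF+HFM sites. At mitochondrial members 38 of 80 were kept (47.5%), and at peroxisomal members 40 of 73 (54.8%). Among the 4 CV+HFM libraries, the share of the mitochondrial GF+HFM sites that was called was 68.8%, 26.2%, 51.2% and 11.2% in replicates 1 to 4. The corresponding peroxisomal shares were 75.3%, 35.6%, 58.9% and 15.1%. Each CV+HFM library called the peroxisomal sites more often than the mitochondrial ones. The means were 39.4% ± 25.6 at mitochondrial and 46.2% ± 26.4 at peroxisomal members (SD, n = 4). These SDs describe the spread between libraries, which both shares have in common, and do not measure the difference within a library. That difference was not tested. Over all GF+HFM sites the mean was 41.8% ± 28.7. The kept shares were 28.7% and 35.6% when CV+HFM replicate 1 was left out, 30% and 35.6% when replicate 3 was, and 19.7% and 24.2% when a call had to cover 50% of the merged site. The peroxisomal share exceeded the mitochondrial one by 7.29 percentage points, and by 1.96 points when gene bodies alone were used and 11.4 points without GF+HFM replicate 3. For comparison, a GF+HFM library called 86.1% ± 5.50 (SD, n = 4) of the member sites called by 2 or more of the remaining 3 GF+HFM libraries. Over all merged sites that value was 86.4% ± 4.77 (SD, n = 4). A rule of 2 of 3 libraries is stricter than the 2 of 4 behind the CV+HFM shares, so they are not like for like.

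In absolute numbers the GF+HFM libraries called 80, 66, 77 and 80 sites at the mitochondrial members and the CV+HFM libraries 59, 21, 41 and 9. At the peroxisomal members GF+HFM libraries called 74, 59, 71 and 68 sites and CV+HFM libraries 59, 26, 44 and 11. The conditions did not overlap at mitochondrial members and touched at 59 sites at peroxisomal members. Over all merged sites they did not overlap either, as the lowest GF+HFM library called 29141 sites and the highest CV+HFM library 27697. The CV+HFM mean was 42.9% ± 29.1 of the GF+HFM mean at mitochondrial members and 51.5% ± 30.8 at peroxisomal members (SD over 4 CV+HFM libraries). It was 46.1% ± 32.7 over all merged sites, so the members as a group lost calls at about the rate of the whole lists. Per 1000 sites of a library, mitochondrial members took 2.32 ± 0.0475 sites in GF+HFM and 2.20 ± 0.141 in CV+HFM, and peroxisomal members 2.08 ± 0.0723 and 2.51 ± 0.396 (SD, n = 4). The highest peroxisomal values were those of the short lists of CV+HFM replicates 2 and 4, at 2.97 and 2.69.

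**Figure D1:**
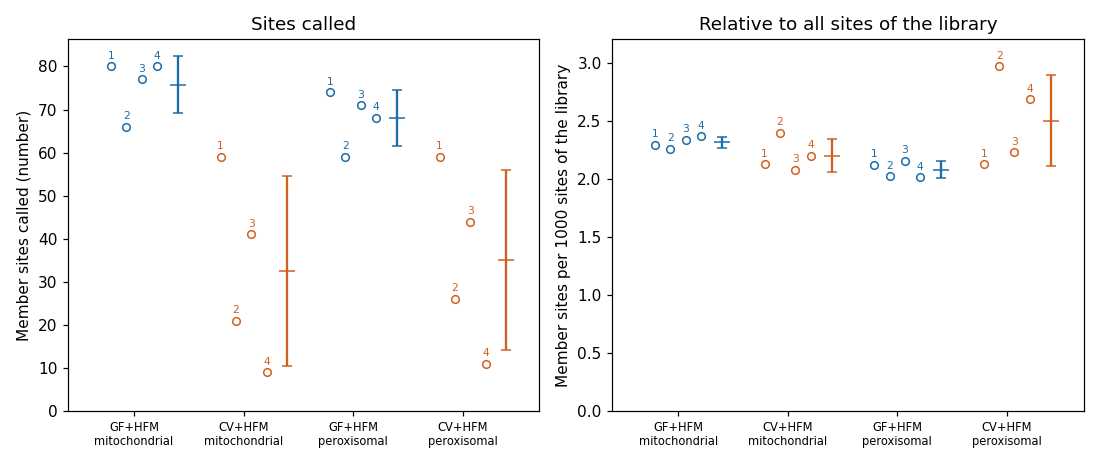
HNF4A sites called at mitochondrial and peroxisomal fatty acid oxidation genes in each library, as a number (left) and per 1000 sites of the same library (right). Circles are libraries numbered by replicate, with the mean and SD of 4 beside them; CV+HFM counts fall from 59 to 9 with list length, whereas the values per 1000 sites lie between 2.02 and 2.97.

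With calls that cover 50% of the site the CV+HFM means were 23.3% and 26.2% of GF+HFM, beside 25.5% over all merged sites. With peaks of at least 300 bp they were 31.6% and 30.7%, beside 30.0%. Both settings depend on peak width, whose median was 298 to 464 bp in the GF+HFM lists. In CV+HFM replicates 1 to 4 it was 318, 186, 274 and 103 bp. When each list was reduced to its 4533 widest peaks, the length of the shortest list, the difference was much smaller. That cut makes all lists equally long, so a smaller difference was set in advance and shows nothing on its cause. The CV+HFM mean then stood at 86.7% ± 8.51 of GF+HFM at mitochondrial members and 90% ± 16.5 at peroxisomal members. Under that setting 11 of 32 members had a lower mean in CV+HFM, beside 42.5% of all genes, and 0 had an exact permutation p under 0.05, beside 0.736%. Over all merged sites the CV+HFM mean was then 96.8% of GF+HFM. With the short lists of CV+HFM replicates 2 and 4 both left out, the CV+HFM means were 66.0% and 75.7% of GF+HFM at mitochondrial and peroxisomal members and 72.6% over all merged sites, and 29 members had a lower mean, beside 79.2% of all genes. How far the length of the lists sets the counts per gene was not tested.

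The 5 genes whose GF+HFM and CV+HFM counts did not overlap were Crat, Acadl, Acads, Acaa2 and Cat, each with p = 0.0286 in an exact permutation test over 70 relabellings (two-sided), the smallest p that 4 against 4 libraries can give. The share of genes with such a p and lower counts was 12.2% of the 14653, so 5 of 32 members is close to that background. After Benjamini-Hochberg adjustment over all these genes the adjusted p of each was 0.234 in the same exact permutation test. An adjusted p under 0.05 was reached by 0 of the 32 and by 0% of all 14653 genes, of which 1788 had an unadjusted p under 0.05, all with lower counts in CV+HFM. The smallest p of this test passes the adjustment only if most genes share it, so the 0 cannot be read as absence of a difference. The number of members with p under 0.05 fell to 2 when GF+HFM replicate 1 was left out and to 3 when GF+HFM replicate 2 was, and rose to 15 when CV+HFM replicate 1 was. The share of all genes moved with it, to 7.14%, 10.3% and 33.3% in these settings. Animal identifiers in the peak names fall into those with and without a letter A, and with labels exchanged only within each kind the same exact permutation test gave p = 0.0333 for the 5 genes. That is the smallest p its 30 relabellings can give, and 12.2% of all genes had lower counts and p under 0.05 there too. For 26 members, CV+HFM replicate 1, the longest CV+HFM list, called at least as many sites as the lowest GF+HFM library. For 29 members CV+HFM replicate 4, the shortest list, called fewer than every GF+HFM library. These 2 counts were not made over all genes, so they cannot be read as a trait of the members. Of the 5 genes, Crat had its own start nearest at 3 of 8 merged sites and Acads at 2 of 7. Acadl had it nearest at 5 of 6, Acaa2 at 10 of 10 and Cat at 7 of 7.

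**Figure D2:**
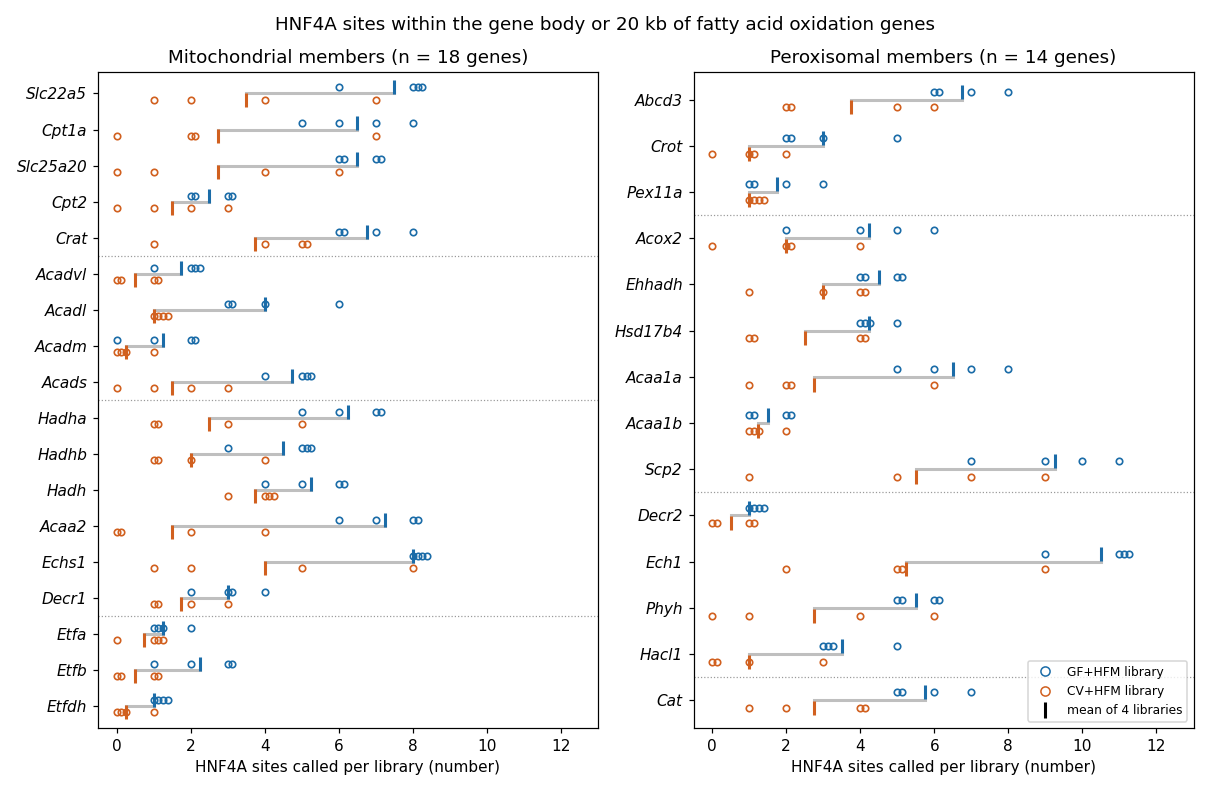
HNF4A sites called per library at each of the 32 genes, with GF+HFM in blue and CV+HFM in orange. Circles are libraries, tied values are drawn slightly to the right of each other, ticks are means of 4 libraries, and dotted lines divide roles; the conditions do not overlap at Crat, Acadl, Acads, Acaa2 and Cat.

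The carnitine shuttle had 40 merged sites at 5 genes, and 17 of its 31 GF+HFM sites were kept (54.8%). Slc22a5 encodes the plasma membrane carnitine transporter and so serves the pathway from outside the mitochondrion. Its libraries called 8, 6, 8 and 8 sites in GF+HFM and 7, 2, 4 and 1 in CV+HFM, a mean difference of -4 (exact permutation p = 0.0571, adjusted p = 0.287). CV+HFM replicate 1 lay within the GF+HFM range and the other 3 below it. Cpt1a, the outer membrane acyltransferase that controls entry into mitochondria, had 7, 5, 8 and 6 sites called in GF+HFM and 7, 2, 2 and 0 in CV+HFM (exact permutation p = 0.114). Slc25a20, the carnitine-acylcarnitine translocase of the inner membrane, had 6, 6, 7 and 7 against 6, 1, 4 and 0 (exact permutation p = 0.0857). In both genes CV+HFM replicate 1 reached into the GF+HFM range.

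Cpt2, which returns the acyl group to coenzyme A inside the mitochondrion, had 3 GF+HFM sites, of which 2 were kept. Crat, the carnitine acetyltransferase found in mitochondria and peroxisomes, had 8, 6, 7 and 6 sites called in GF+HFM and 5, 4, 5 and 1 in CV+HFM, and 5 of its 8 GF+HFM sites were kept. A site of Crat called by all 8 libraries (chr2:30247870-30249371) lay 96 bp from the start of Dolpp1, a neighbouring gene, and ranked at the 95.5th percentile or above for width in every list.

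Calls at single sites gave 9 member sites that were called by 4 of 4 GF+HFM and 0 of 4 CV+HFM libraries, which is 4.52% of the 199, beside 2.79% of all 45552 merged sites. Fisher's exact test of 4 against 0 libraries gave p = 0.0286, the smallest possible, and an adjusted p of 0.824 over all sites, so 0 sites passed after adjustment and 1269 had an unadjusted p under 0.05. Most sites would have to share the smallest p for any to pass, so that 0 was nearly set in advance. Of these sites 6 lay at mitochondrial members and 3 at peroxisomal members, and without CV+HFM replicate 1 the number was 25, while the share of all merged sites rose to 10.9%. Of the 9, 2 lay in intron 1 of Cpt1a, at 11109 and 22015 bp from its start, and 2 at Acaa2, while Slc22a5, Acadl, Abcd3, Acaa1a and Cat had 1 each. Merged sites of the opposite kind, called by all 8 libraries, numbered 17 at 13 members (8.54%), beside 7.56% of all sites. They comprised 6 at mitochondrial and 11 at peroxisomal members.

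Slc22a5, Acadl, Abcd3, Acaa1a and Cat held both kinds of site. Sequences are shown for 3 of them, Slc22a5, Acadl and Cat, so that a site kept in every library can be read beside one absent from every CV+HFM list. They are the plus strand of mm9 over the part shared by the peaks of all libraries that called the site. Capitals would mark CAAAGTCCA or CAAAGGTCA on either strand, letters of the HNF4A motif and of the related direct-repeat element of nuclear receptors, and neither occurs in these 6. The all-library site at the start of Abcd3, which is not printed, held CAAAGTCCA near its midpoint.
Slc22a5, all 8 libraries, upstream, chr11:53717872-53717956: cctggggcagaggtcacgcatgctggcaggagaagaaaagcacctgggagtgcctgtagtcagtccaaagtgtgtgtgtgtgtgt
Slc22a5, GF+HFM only, intron 1, chr11:53699094-53699272: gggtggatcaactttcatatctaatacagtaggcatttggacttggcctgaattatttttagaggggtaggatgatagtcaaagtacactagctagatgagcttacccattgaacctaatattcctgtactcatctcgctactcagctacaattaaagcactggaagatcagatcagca
Acadl, all 8 libraries, at the start, chr1:66909276-66909385: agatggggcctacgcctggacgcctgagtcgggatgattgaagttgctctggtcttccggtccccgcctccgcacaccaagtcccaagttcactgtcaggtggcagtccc
Acadl, GF+HFM only, intron 8, chr1:66886656-66886829: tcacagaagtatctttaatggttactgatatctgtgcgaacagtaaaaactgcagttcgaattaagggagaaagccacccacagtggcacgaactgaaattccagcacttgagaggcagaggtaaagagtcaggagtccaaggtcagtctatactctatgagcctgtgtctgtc
Cat, all 8 libraries, at the start, chr2:103325992-103326079: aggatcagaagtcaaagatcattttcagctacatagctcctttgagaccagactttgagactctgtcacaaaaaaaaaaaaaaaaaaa
Cat, GF+HFM only, upstream, chr2:103332799-103332987: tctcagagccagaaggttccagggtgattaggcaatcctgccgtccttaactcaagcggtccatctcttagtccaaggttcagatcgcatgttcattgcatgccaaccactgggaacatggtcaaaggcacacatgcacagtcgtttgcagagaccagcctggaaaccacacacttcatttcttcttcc

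The acyl-CoA dehydrogenases catalyse the first step of each mitochondrial cycle, each for a range of chain lengths. Of their 13 GF+HFM sites 4 were kept (30.8%), and their CV+HFM mean was 27.7% ± 17.5 of the GF+HFM mean (SD over 4 CV+HFM libraries). Acadl, for long chains, had 3, 3, 4 and 6 sites called in GF+HFM and exactly 1 in each CV+HFM library (difference -3). That 1 was the site at its start (chr1:66909029-66909826), called by all 8 libraries, and the other 5 merged sites of Acadl were called by 0 CV+HFM libraries. Acads, for short chains, had 5, 5, 4 and 5 against 2, 1, 3 and 0 (difference -3.25). Its site at the start was called by 4 GF+HFM libraries and 1 CV+HFM library.

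Acadvl, the membrane-bound enzyme for very long chains, had 4 merged sites, 3 of them called by 1 library only. Its site at the start was called by 4 GF+HFM and 2 CV+HFM libraries. Acadm, for medium chains, was among the members with fewest sites, at 1, 0, 2 and 2 in GF+HFM and 1, 0, 0 and 0 in CV+HFM. Peak numbers skip beside the windows of Acadm and Etfdh in several lists, so a peak there may not be among those analysed here, and the same holds for Acox2 and Cat in 1 or more of the short CV+HFM lists.

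The later steps of the mitochondrial cycle had 38 merged sites at 6 genes, and 15 of their 31 GF+HFM sites were kept (48.4%). Acaa2, the mitochondrial 3-ketoacyl-CoA thiolase, had the largest mean difference of the 32 members: 8, 7, 6 and 8 sites were called in GF+HFM and 4, 0, 2 and 0 in CV+HFM (7.25 ± 0.957 and 1.5 ± 1.91, SD, n = 4). Of its 8 GF+HFM sites 1 was kept, and all of its 10 merged sites had the start of Acaa2 as their nearest gene start. Hadh, the short-chain hydroxyacyl-CoA dehydrogenase, kept the largest share of its GF+HFM sites among these 6 genes. Its libraries called 5, 6, 4 and 6 sites in GF+HFM and 4, 4, 4 and 3 in CV+HFM, with 4 of 5 GF+HFM sites kept and 3 sites called by all 8 libraries, the most of any member.

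The 3 Hadh sites lay at -830, 1084 and 8021 bp from its start, the last in intron 1. The intronic one had peaks between the 93.3rd and the 99.3rd width percentile of their lists and is shown, plus strand of mm9, over the central 300 bases of the part shared by its 8 peaks, which was the widest such part among the all-library sites of this role that the sequence rule admitted.
Hadh, all 8 libraries, intron 1, chr3:130966895-130967194: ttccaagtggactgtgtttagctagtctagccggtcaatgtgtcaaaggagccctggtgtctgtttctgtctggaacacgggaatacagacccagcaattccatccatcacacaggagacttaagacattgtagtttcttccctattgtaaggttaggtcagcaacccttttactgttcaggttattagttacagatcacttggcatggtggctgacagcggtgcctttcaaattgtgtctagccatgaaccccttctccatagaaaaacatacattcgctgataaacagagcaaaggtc

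Hadha and Hadhb encode the subunits of the trifunctional protein, which carries out the later steps for long chains, and lie head to head, so sites between them count for both. Hadha had 7, 5, 7 and 6 sites called in GF+HFM against 5, 1, 3 and 1, and Hadhb 5, 3, 5 and 5 against 4, 1, 2 and 1 (exact permutation p = 0.0571 for each). A site over both starts (chr5:30481656-30482264) was called by 4 GF+HFM and 3 CV+HFM libraries. Echs1, the short-chain enoyl-CoA hydratase, had 8 sites called by each GF+HFM library and 8, 2, 5 and 1 in CV+HFM, so that CV+HFM replicate 1 called the full set. Decr1, needed for unsaturated chains, had 3 GF+HFM sites, 2 of them kept.

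The electron transfer flavoprotein passes electrons from the dehydrogenases to ubiquinone, and its genes had few sites, 6 at 3 genes. Etfa, its alpha subunit, kept its 1 GF+HFM site, which lay at the start and was called by 4 GF+HFM and 3 CV+HFM libraries. Etfb, the beta subunit, had 3, 1, 3 and 2 sites called against 1, 0, 1 and 0. Etfdh, the ubiquinone oxidoreductase, had 1 site, in exon 10, called by 4 GF+HFM libraries and in CV+HFM replicate 3 alone.

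Among peroxisomal genes, the group of import, export and division kept 6 of 12 GF+HFM sites (50%). Abcd3, a transporter of the peroxisomal membrane, had 6, 6, 7 and 8 sites called in GF+HFM and 6, 2, 5 and 2 in CV+HFM (exact permutation p = 0.0857). It had a pair of sites called by all 8 libraries, at 302 and -3148 bp from its start, and the only CV+HFM site of the 32 genes that was not a GF+HFM site (chr3:121457333-121457627, 0 GF+HFM and 2 CV+HFM libraries). In all, 5 member sites were called by more CV+HFM than GF+HFM libraries (2.51%), beside 2.86% of all merged sites, and the other 4, at Slc22a5, Cpt1a, Abcd3 and Hacl1, were called by 1 CV+HFM library each.

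Crot, which makes acylcarnitines from shortened chains for export, had 5, 2, 3 and 2 sites against 2, 1, 1 and 0. Pex11a, a peroxisome division factor, had 3, 1, 1 and 2 sites against 1 in each CV+HFM library. The constant site of Pex11a lay 1180 bp from the start of Plin1, which encodes a lipid droplet coat protein.

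The peroxisomal beta-oxidation enzymes kept 20 of 31 GF+HFM sites (64.5%), more than any mitochondrial role, and their CV+HFM mean was 56.2% ± 31.8 of GF+HFM (SD over 4 CV+HFM libraries). Ehhadh, the bifunctional hydratase and dehydrogenase, and Hsd17b4, its counterpart for branched chains and bile acid precursors, each had 4 GF+HFM sites that were all CV+HFM sites. Ehhadh libraries called 5, 4, 5 and 4 sites in GF+HFM and 4, 3, 4 and 1 in CV+HFM (difference -1.5, exact permutation p = 0.171). Hsd17b4 had 4, 4, 4 and 5 against 4, 1, 4 and 1 (difference -1.75, exact permutation p = 0.286). In both genes CV+HFM replicates 1 and 3 lay within the GF+HFM range, and the short lists of replicates 2 and 4 lay below it.

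The Ehhadh site at the start (chr16:21787548-21789116) was called by all 8 libraries, had peaks from the 65.4th to the 99.9th width percentile of their lists, and held CAAAGTCCA, in capitals, in the part shared by all 8 peaks (plus strand of mm9).
Ehhadh, all 8 libraries, at the start, chr16:21788260-21788376: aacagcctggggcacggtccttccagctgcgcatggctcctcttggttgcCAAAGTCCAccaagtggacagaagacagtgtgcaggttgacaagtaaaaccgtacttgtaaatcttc

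Acox2, the oxidase for branched chains and bile acid precursors, had 6, 5, 2 and 4 sites called against 2, 2, 4 and 0, with both conditions overlapping. Acaa1a and Acaa1b encode near-identical thiolases, so reads could be shared between copies where the sequences are alike. Acaa1a had 7, 5, 8 and 6 sites called against 6, 2, 2 and 1 (exact permutation p = 0.0857), and Acaa1b 2, 1, 2 and 1 against 2, 1, 1 and 1. Scp2, a thiolase and sterol carrier, had 10, 7, 9 and 11 sites against 9, 5, 7 and 1 and kept 7 of 10 GF+HFM sites, though only 1 of its 12 merged sites had its start as the nearest.

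The auxiliary and alpha-oxidation enzymes kept 10 of 24 GF+HFM sites (41.7%). Ech1, a dienoyl-CoA isomerase present in both organelles, had the highest count of the 32 genes, at 11, 9, 11 and 11 sites in GF+HFM and 9, 5, 5 and 2 in CV+HFM (exact permutation p = 0.0571). Only 4 of its 15 merged sites had its start as the nearest, and its widest all-library site lay 2738 bp from the start of Lgals4. Hacl1, the lyase of alpha-oxidation, had 3, 3, 5 and 3 sites against 3, 0, 1 and 0, and 0 of its 5 GF+HFM sites were kept. Phyh, the hydroxylase that begins alpha-oxidation of phytanic acid, kept 4 of 7. Decr2, the peroxisomal dienoyl-CoA reductase, had 1 site, over its start, called by 4 GF+HFM and 2 CV+HFM libraries.

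Cat, the catalase that removes hydrogen peroxide, had 5, 6, 7 and 5 sites called in GF+HFM and 4, 2, 4 and 1 in CV+HFM (difference -3), and 4 of 6 GF+HFM sites were kept. The site at its start (chr2:103325292-103326368) was called by all 8 libraries, and that at -7672 bp in 4 GF+HFM and 0 CV+HFM libraries.

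**Figure D3:**
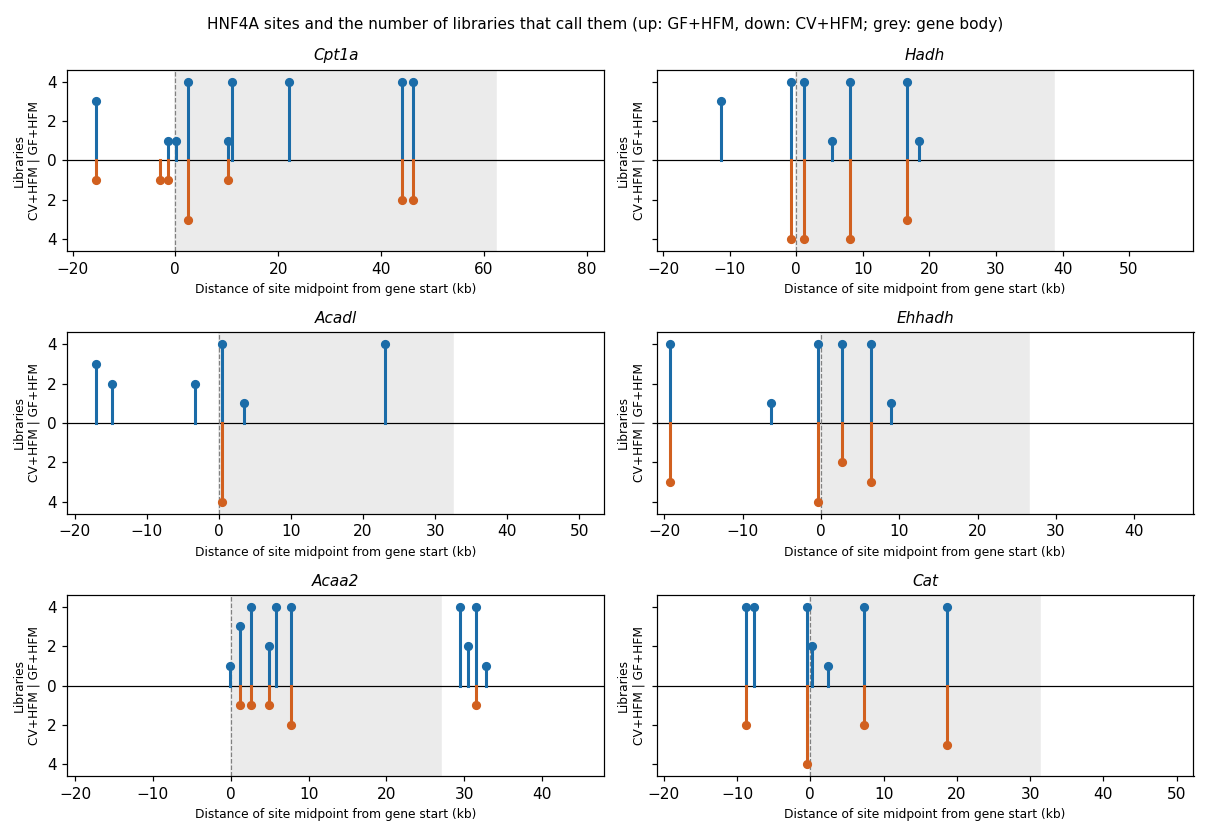
Each stem is a merged HNF4A site at 6 of the genes, placed by the distance of its midpoint from the gene start in kb (positive into the gene), with its height the number of GF+HFM libraries (up, blue) and CV+HFM libraries (down, orange) that called it; grey marks the gene body. Acadl keeps its start site alone, Acaa2 has no site in more than 2 CV+HFM libraries, and Ehhadh, Hadh and Cat have a start site called by all 8.

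Position relative to the gene's own start gave a pattern across both compartments. HNF4A sites within 1 kb of the gene start were found at 27 of 32 members (84.4%) and at 43.6% of all genes with a site. Of the members' GF+HFM start sites 20 of 28 were kept (71.4%), beside 51.0% of the 5129 GF+HFM start sites of all genes. Of their other GF+HFM sites 58 of 125 were kept (46.4%), beside 54.4% for all genes. These classes are not alike: the members' other sites include some at the starts of neighbouring genes, which count as start sites for all genes. Mitochondrial members kept 11 of 15 start sites (73.3%) and 27 of 65 others (41.5%), and peroxisomal members 9 of 13 (69.2%) and 31 of 60 (51.7%). These shares carry no test, since members of one pathway are not replicates.

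**Figure D4:**
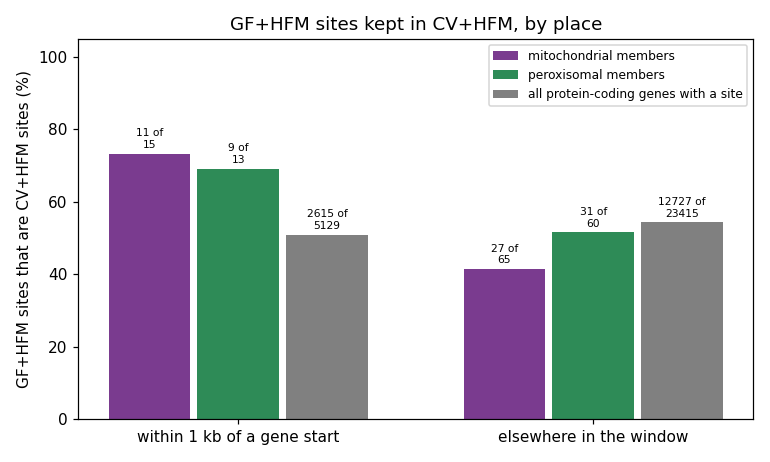
Share of GF+HFM sites that were also CV+HFM sites, for sites within 1 kb of a gene start and for the other sites of the same windows, with the counts above the bars. Start sites of the members were kept at 73.3% and 69.2%, above their other sites at 41.5% and 51.7%, whereas all genes with a site stood at 51.0% and 54.4%. The members' other sites include some at the starts of neighbouring genes, which count as start sites for all genes.

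Width followed the calls at members as it did elsewhere. The sites that every GF+HFM library called were split into quartiles of mean width rank, with widths ranked inside each list. At the members the mean share called per CV+HFM library was 28.6%, 51.7%, 64.7% and 80.6% from the narrowest to the widest quartile. Over all merged sites it was 32.1%, 48.9%, 63.4% and 79.2%. Of the mitochondrial sites of this kind 21.8% were in the widest quartile, and 30.6% of the peroxisomal ones. In the widest quartile CV+HFM libraries called 75% ± 26.4 of 12 mitochondrial and 85% ± 22.0 of 15 peroxisomal sites (SD, n = 4). Replicates 1 to 4 called 100%, 66.7%, 91.7% and 41.7% of the mitochondrial sites. They called 100%, 86.7%, 100% and 53.3% of the peroxisomal ones. The SDs describe the spread between libraries and not that of the difference within a library, which was not tested.

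**Figure D5:**
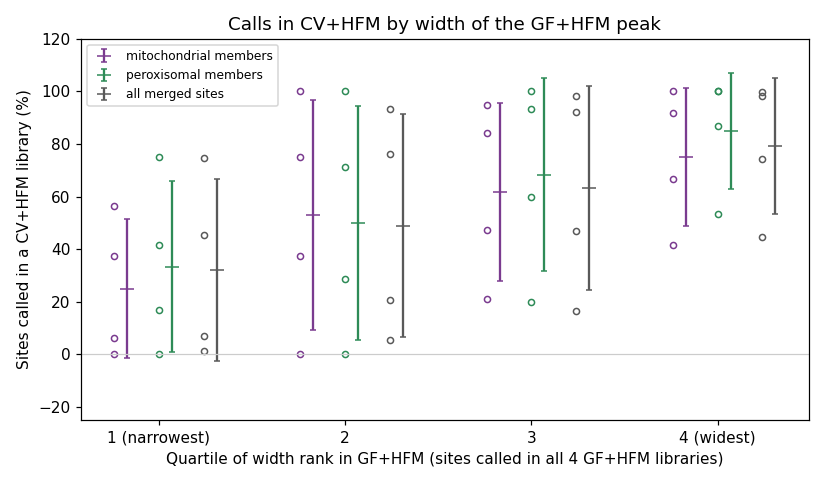
Percentage of sites called by each CV+HFM library (circles) against the width quartile of the site in GF+HFM, for mitochondrial members, peroxisomal members and all merged sites, with mean and SD of 4 libraries. The means rise from 25% to 75% at mitochondrial, from 33.3% to 85% at peroxisomal members and from 32.1% to 79.2% over all sites. Error bars show the spread between libraries and not that of a difference within a library.

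Windows of 200 bp at the site midpoints were searched for both sets of 9 letters on either strand. CAAAGTCCA was found at 2 of 103 mitochondrial sites (1.94%) and 7 of 96 peroxisomal sites (7.29%), beside 5.64% of all merged sites. CAAAGGTCA was found at 1.94% and 4.17%, beside 4.77%. Of the 17 all-library sites 3 held CAAAGTCCA (17.6%), at the starts of Ehhadh and Abcd3 and downstream of Ech1, beside 11.7% of all such sites. CAAAGGTCA was found at 0 of the 17, beside 5.96%, so that 17.6% of these member sites held either set of letters, beside 17.4% of all such sites. A match of letters is a description of sequence and shows no binding.

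A wider list of 25 other genes of fatty acid oxidation was read in the same way. Of these, 24 had a site, and Abcd2, a peroxisomal transporter, had none. They held 78 GF+HFM sites, of which 39 were kept (50%), and 23 of the 24 with a site had a lower mean in CV+HFM, beside 96.2% of all genes with a site. An unadjusted exact permutation p under 0.05, with lower counts, was found for 3: Acad11, Eci1 and Slc27a2 (p = 0.0286 each, adjusted p = 0.234), beside 12.2% of all genes. Slc27a2, a very-long-chain acyl-CoA synthetase, had 7, 6, 7 and 8 sites against 4, 1, 4 and 0. Most sites were held by Slc25a17 (10), by Eci1, Acox3 and Slc27a2 (9 each) and by Cpt1b (7).

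The site numbers of markers of the cell types that the preparation could hold are given for scale. The 5 enterocyte markers had a median of 10 merged sites and kept 35 of 45 GF+HFM sites (77.8%), beside 53.6% of all GF+HFM sites. They were not alike: Vil1 kept 15 of 18, Fabp2 7 of 9, Apoa4 9 of 10, Alpi 4 of 6 and Sis 0 of 2. The 6 markers of other epithelial types had a median of 2 and kept 8 of 12 (66.7%), and the 5 non-epithelial markers had a median of 2, with Ptprc at 0, and kept 3 of 6 (50%). A site number is not a level of expression.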

How the data were processed

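The 32 genes and the other gene lists were chosen with earlier results of these data known. The authors aligned reads to mm9 with Bowtie2 and called narrow peaks in each mouse with MACS2 version 2.1.1.20160309 against input, and replicates were not pooled. The deposited lists hold the positions of peaks in bp and a name, with no count, score or strength, so the read-count comparison of the study could not be run and depth is unknown. In each list 208 to 422 peak numbers are skipped, and peaks with those numbers are not analysed here. Groups and replicate numbers came from the sample titles.

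Peaks sharing 1 bp were merged, and sites within the gene body or 20 kb either side were counted per library for 14653 protein-coding genes. Counts were compared by an exact permutation test (70 relabellings, absolute difference of means, two-sided) and calls per site by Fisher's exact test in scipy 1.17.1, with Benjamini-Hochberg adjustment over all genes or all sites and a threshold of 0.05. The permutation test was tested on simulated data. Python 3.11.15, numpy 2.4.6, pysam 0.24.0 and matplotlib 3.10.9 were used. Each library is 1 mouse. Width ranks within a list stood in for strength. All 32 genes were named, and single sites where they were called by 4 GF+HFM and 0 CV+HFM libraries, by all 8, over a gene start, or more often in CV+HFM. By rule, 1 sequence per role was taken outside chromosome 18, for the site called in most libraries with the widest part shared by its peaks, without UTR. Those of Slc22a5, Acadl, Hadh, Ehhadh and Cat are printed, and 3 from sites called in GF+HFM alone were added after the values were seen. Sequences came from NCBIM37 (mm9), and 226 sites on sequences outside it were left out of the motif search. Alternatives were each library left out, other overlaps, peak widths, list lengths, windows and library minimums. Of the list of other genes, 1 is not reported here and was left out of its counts.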

Additional observations from a re-analysis of the deposited data

Results flagged for a closer look

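In groups of 4 libraries, 13 of the 63 sets of counts that varied had 1 library set apart from the other 3 by Dixon's criterion on the gap over the range, where chance flags about 1 in 20. The counts are small whole numbers, so 3 tied libraries and 1 that differs by a single site are enough. In GF+HFM, replicate 2 called 6 sites at Slc22a5 where the others called 8, 3 at Hadhb where they called 5, and 9 at Ech1 where they called 11. Replicate 3 called 1 site at Acadvl against 2, 4 at Acads against 5, and 5 at Hacl1 against 3. Replicate 4 called 2 sites at Etfa against 1 and 5 at Hsd17b4 against 4. In CV+HFM, replicate 4 called 3 sites at Hadh against 4 and 0 at Etfa against 1, replicate 1 called 1 at Acadm against 0 and 2 at Acaa1b against 1, and replicate 3 called 1 at Etfdh against 0. The totals over mitochondrial and over peroxisomal members were not among them.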

How the results depend on the processing

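Positions alone limit what these lists can show: a site is called or not, and depth is unknown. The number of genes and of single sites past an adjusted p of 0.05 was 0 under every alternative run. With so few libraries, an adjusted p under 0.05 needs most genes or sites to share the smallest p. These 0 counts were therefore nearly set in advance and show no stability of a result. A lower mean in CV+HFM held at all 32 members with any 1 library left out. Leaving out 1 library gave 2 to 15 members with p under 0.05 (7.14% to 33.3% of all genes), 9 to 25 member sites in every GF+HFM and no CV+HFM library, and a peroxisomal minus mitochondrial difference in kept share of 5.62 to 11.4 points. With peaks of at least 300 bp, 8 members had p under 0.05, beside 11.5% of all genes. With each list cut to its widest 4533 peaks, there were 0 such members and 0 sites in GF+HFM alone, the CV+HFM means were 86.7% and 90% of GF+HFM, and the mean difference turned to 0.25 at Slc25a20, Acads, Crot and Hsd17b4, 0.5 at Hadha, Hadhb and Abcd3, and 0.75 at Acaa1a. Lists cut to equal length must give similar totals, so this setting cannot show the cause, which was not tested. Calls that cover 50% of a site gave kept shares of 19.7% and 24.2%. The difference in kept share was 4.51 points there, 9.98 with wide peaks, 1.96 with gene bodies only, 4.10 with the nearest start only, and 3.04 and 11.3 with sites of a condition in at least 1 or 3 libraries. Leaving out both short CV+HFM lists, chosen after seeing the data like the split by identifier, gave CV+HFM means of 66.0% and 75.7% of GF+HFM, 29 members with a lower mean, and 0 members with p under 0.05, since 4 against 2 libraries cannot give a p below 0.0667.

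Replicate numbers name no shared litter or day. Deviations of same-numbered libraries correlated at -0.0595, 0.0264, -0.0107 and -0.0608 over genes, beside -0.0746 to 0.0916 for libraries of different number. These values do not set same-numbered libraries apart, and whether such libraries shared a litter or day is unknown. With a replicate block 0 members and 0 genes or sites passed, as its 16 exchanges cannot give a p below 0.125.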
